A study of Homo sapiens with 6 samples.

Results

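The ERBB receptors and the EGF-family ligands that bind them were examined in SKOV3 cells, an established human ovarian carcinoma line known for amplification of ERBB2, after silencing of the long non-coding RNA NRCP. The members were all array probes whose annotated gene symbol was EGFR, ERBB2, ERBB3, ERBB4, EGF, AREG, EREG, HBEGF, TGFA or NRG1. Of these 10 genes 9 had a named probe, with 23 probes in all out of 47231, and AREG is not analysed here. Cells of 1 line had received a control siRNA (sicontrol) or an siRNA against NRCP (siNRCP) for 48 h, with 3 samples per group and 1 Illumina BeadArray per sample. All 6 samples therefore shared the line, the transfection with an siRNA and the time, and neither the siRNA sequences nor separate cultures are stated. A probe named NRCP was not among those read, and the depth of its silencing was not analysed here. Values are log2 bead intensities after background correction and quantile normalization, and a difference is siNRCP minus sicontrol.

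The 4 ERBB receptors are transmembrane tyrosine kinases that signal as pairs. EGFR binds EGF, TGF-alpha, amphiregulin, epiregulin and HB-EGF, ERBB3 and ERBB4 bind neuregulins, ERBB2 has no known ligand of its own and is the preferred partner of the others, and ERBB3 has a weakly active kinase and signals mainly through its partner. The ligands are made as membrane proteins and are cut free by ADAM proteases, and the activated receptors signal through adaptors to the RAS-ERK chain and to PI3K. In ovarian carcinoma, ERBB2 amplification and autocrine loops of EGFR or ERBB3 ligands have long been studied.

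ERBB2 among the receptor genes and TGFA among the ligand genes read highest on siNRCP arrays 2 and 3 on every probe they had above background. The 250 bases before the RefSeq start of both genes, taken as the start of the whole gene, are shown for that reason. Any other start of these genes is not shown, and whether the probed transcripts begin here was not examined. They are given 5′ to 3′ on the gene's strand, from the RefSeq table of build GRCh38.p14, with capitals marking any match to 1 of 3 promoter motifs on either strand: the GC box, spelled GGGCGG, the CCAAT box, spelled as named, and the TATA box, spelled TATAAA. The ERBB2 stretch lies at chr17:39687844-39688093 on the + strand, and the TGFA stretch at chr2:70553827-70554076 on the - strand.
ERBB2: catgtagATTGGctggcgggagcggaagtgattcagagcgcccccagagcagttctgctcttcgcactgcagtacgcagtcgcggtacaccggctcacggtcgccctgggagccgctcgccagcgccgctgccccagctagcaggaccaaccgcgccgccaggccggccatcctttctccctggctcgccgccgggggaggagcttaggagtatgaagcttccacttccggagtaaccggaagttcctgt
TGFA: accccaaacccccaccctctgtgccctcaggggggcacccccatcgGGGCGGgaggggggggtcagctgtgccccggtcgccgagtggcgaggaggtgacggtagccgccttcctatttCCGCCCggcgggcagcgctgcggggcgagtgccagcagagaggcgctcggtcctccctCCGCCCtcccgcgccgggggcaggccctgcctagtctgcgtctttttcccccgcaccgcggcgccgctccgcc
The ERBB2 stretch held 1 CCAAT box, read on the opposite strand, with 0 GC boxes and 0 TATA boxes, and was 65.6% G or C. The TGFA stretch held 3 GC boxes, 0 CCAAT boxes and 0 TATA boxes, and was 75.6% G or C. Of 35116 stretches of the same length in that table, 42.6% held at least 1 GC box, 32.0% a CCAAT box and 10.7% a TATA box. A GC or CCAAT box is therefore common, and the matches describe the letters only. The share of stretches with 3 GC boxes was not counted.

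No member probe passed the test between siNRCP and sicontrol when all 6 arrays were used with equal weight. An adjusted p under 0.05 (limma, with Benjamini-Hochberg adjustment over the whole array) counted as a pass, and 0 of the 23 probes passed, beside 1.65% of all 47231 probes (0.737% higher and 0.917% lower), and 4 of the 23 had an unadjusted p under 0.05, beside 13.8% of all probes. When the 6 arrays were instead weighted by limma's array weights, 5 member probes passed (4 higher and 1 lower), beside 17.3% of all probes. By point estimate 14 read higher and 9 lower. The groups did not overlap on 1 member probe, a dim ERBB3 probe that was lower in siNRCP, beside 8.68% of all probes lower without overlap and 9.15% higher. A background level was set for each array as the 95th percentile of its olfactory receptor probes, since those genes are nearly silent in tissues other than the nose. Of the 23 probes 11, from 6 genes, lay above it on at least 3 arrays, 1 on 1 or 2 arrays, and 11 on 0 arrays. The probes above background belonged to EGFR, ERBB2, ERBB3, HBEGF, TGFA and NRG1, and no probe of ERBB4, EGF or EREG reached the level on any array.

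The arrays of the siNRCP group differed among themselves, and this touches every result on the members. Raw brightness averaged 555 to 563 over the sicontrol arrays but 554, 373 and 486 over siNRCP arrays 1 to 3, with 39.8% to 44.0% of probes above background on each array. Across the probes, the normalized values of siNRCP array 1 correlated at 0.962 and 0.969 with siNRCP arrays 2 and 3, and at 0.983 to 0.986 with the sicontrol arrays. Over all probes 781 passed, of which 348 were higher and 433 lower in siNRCP. With 1 array left out the count was 12, 18 and 5 without sicontrol array 1, 2 or 3, and 9933, 188 and 39 without siNRCP array 1, 2 or 3. Under median scaling in place of quantile normalization 254 passed, 43 higher and 211 lower. Markers were read against the label: 10 of 12 epithelial and ovarian carcinoma markers lay above background, EPCAM, PAX8 and MUC16 among them and WT1 and CLDN4 not. Also above background were 2 of 7 fibroblast markers (COL1A1 and COL1A2), 1 of 4 endothelial (PECAM1) and 2 of 5 measured leukocyte markers (CD68 and ITGAM). The leukocyte marker PTPRC, the endothelial markers VWF and CDH5 and the fibroblast marker DCN were among those at background. The median log2 level of the epithelial list was 10.42 to 10.60 on the sicontrol and 10.19 to 10.29 on the siNRCP arrays. All 6 samples were of 1 line, and the cause of the lower epithelial median on the siNRCP arrays was not tested.

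**Figure D1:**
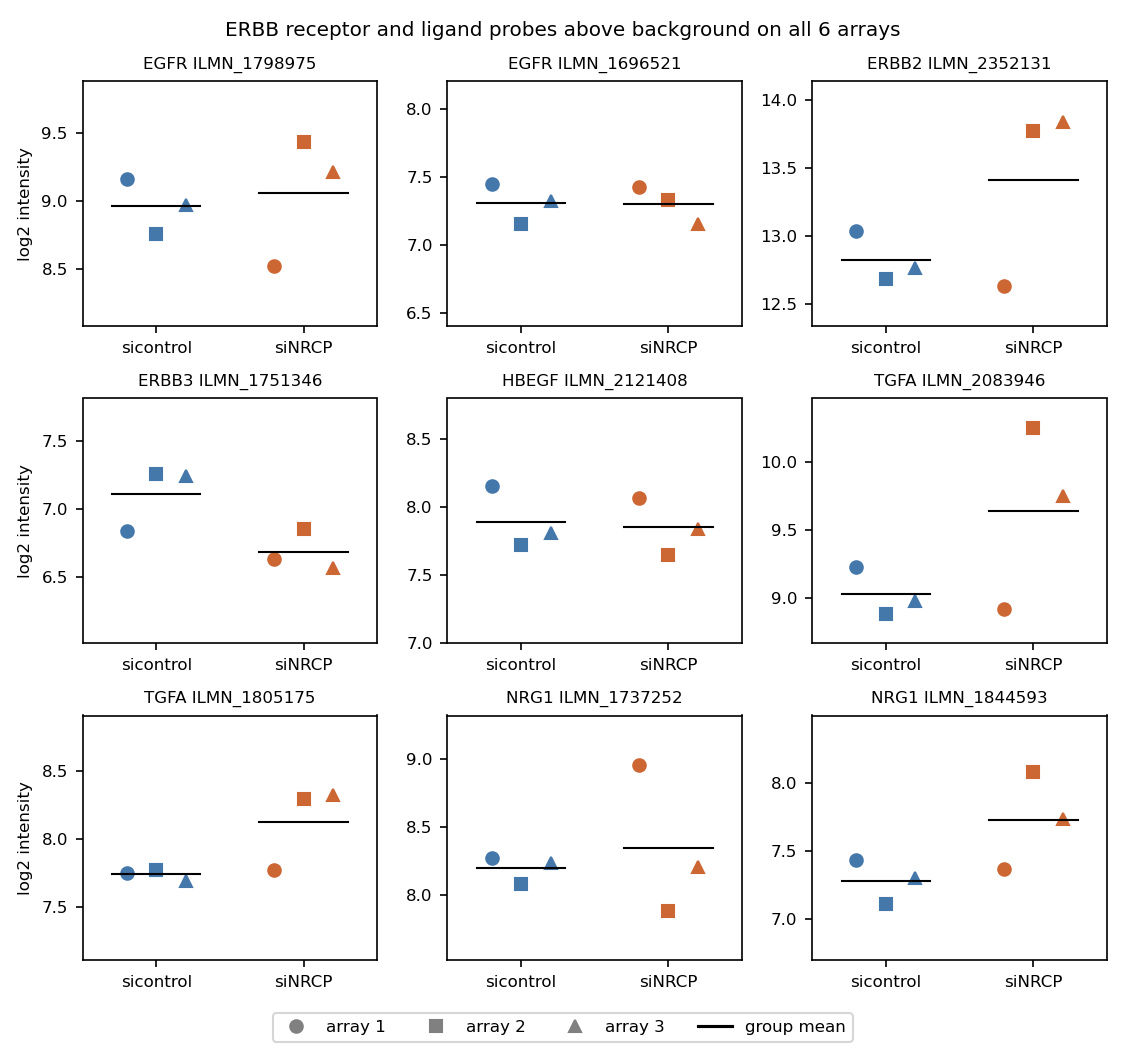
Log2 intensity (y axis) of the 9 member probes above background on all 6 arrays, by group (x axis). Symbols are single arrays and the line is the group mean, and each panel spans the same log2 range; on ERBB2 and on both TGFA probes siNRCP arrays 2 and 3 lie above all sicontrol arrays while siNRCP array 1 does not.

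ERBB2, the amplified receptor gene of this line, had 1 bright probe that read higher on 2 of the 3 siNRCP arrays. On probe ILMN_2352131 the 3 sicontrol arrays read 13.04, 12.69 and 12.76 log2, in the order of their numbers, and the 3 siNRCP arrays 12.64, 13.77 and 13.84. SiNRCP arrays 2 and 3 lay above every sicontrol array and siNRCP array 1 below every one. The raw intensities behind these values were 9435, 7917 and 8011 in sicontrol and 7442, 9730 and 13100 in siNRCP, so the order of the arrays was the same before normalization. The means were 12.83 ± 0.18 and 13.42 ± 0.68 (SD, n = 3), and the difference of 0.59 ± 0.31 log2 (SE) did not pass (limma adjusted p = 0.47; 95% interval -0.13 to 1.30). Under median scaling it was 0.28 (adjusted p = 0.68). The other 2 ERBB2 probes stayed at background on all 6 arrays, one of them annotated to the same transcript as the bright probe, at means of 6.17 and 6.13 in sicontrol and 6.09 and 6.12 in siNRCP. They carry no information on ERBB2 in these samples.

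EGFR, the receptor of most of these ligands, had 4 probes, of which 3 lay above background on at least 3 arrays. The probe annotated to the full-length receptor, ILMN_1798975, read 9.16, 8.76 and 8.97 log2 in sicontrol and 8.52, 9.44 and 9.21 in siNRCP. As for ERBB2, siNRCP array 1 was the lowest of the 6 arrays and siNRCP arrays 2 and 3 the highest. The raw intensities were 723, 504 and 598 in sicontrol and 432, 527 and 655 in siNRCP. Unlike for ERBB2, sicontrol array 1 was therefore the highest before normalization. The groups overlapped, with means of 8.96 ± 0.20 and 9.06 ± 0.48 (SD, n = 3) and a difference of 0.09 ± 0.23 log2 (SE; limma adjusted p = 0.92; 95% interval -0.45 to 0.64), which was -0.13 under median scaling. The remaining EGFR probes are annotated to transcripts of shortened, soluble receptor forms. Of these, ILMN_1696521 read 7.45, 7.16 and 7.33 in sicontrol and 7.43, 7.33 and 7.16 in siNRCP, a difference of -0.01 ± 0.12 (adjusted p = 0.99). ILMN_1728858 lay above background on 2 arrays of each group, with a difference of 0.08 ± 0.10, and ILMN_1755535 on 1 array in all, with 0.06 ± 0.16 (adjusted p = 0.80 and 0.92).

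ERBB3, the kinase-impaired neuregulin receptor, read lower in siNRCP on its brightest probe, without passing the test. A second probe was above background on the sicontrol arrays only. On ILMN_1751346, the brightest, the log2 intensity was 6.84, 7.26 and 7.24 in sicontrol and 6.64, 6.86 and 6.57 in siNRCP. SiNRCP array 2 just exceeded sicontrol array 1, and the groups were otherwise apart. The difference was -0.43 ± 0.14 log2 (SE), between means of 7.12 ± 0.24 and 6.69 ± 0.15 (SD, n = 3; limma adjusted p = 0.23; 95% interval -0.76 to -0.10), and -0.54 (adjusted p = 0.16) under median scaling. ILMN_1737993, annotated to a transcript of a short secreted form, read 6.48, 6.51 and 6.67 in sicontrol and 6.22, 6.36 and 6.30 in siNRCP. It was above background on all 3 sicontrol arrays and on 0 siNRCP arrays, so the siNRCP level is only a bound, and the fit gave an adjusted p of 0.27. The third probe, annotated to the same transcript as ILMN_1737993, lay at background on all arrays (-0.03 ± 0.08, limma adjusted p = 0.93) and carries no information on the change. Unlike ERBB2, ERBB3 did not set siNRCP array 1 apart from arrays 2 and 3.

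The ERBB3 probe ILMN_1751346 had the smallest p of the members above background, and by the rule for likeness the genes nearest to its pattern were sought among 11438 other named genes above background. The measure was the mean absolute difference, over the 6 arrays, of log2 values centred on each gene's own mean. The 3 nearest were DUSP28, a gene of the dual-specificity phosphatase family (0.056 log2), CDKL3, a cyclin-dependent kinase-like gene (0.060), and GPC4, a cell-surface heparan sulfate proteoglycan (0.068). Their own differences were -0.44, -0.33 and -0.41 log2, and 0 of the 3 passed limma (adjusted p = 0.15, 0.30 and 0.24). ERBB4, the second neuregulin receptor, had 1 probe, which lay at background on all 6 arrays at 5.82 ± 0.07 and 5.92 ± 0.09 (SD, n = 3), so the arrays could not show whether it changed.

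**Figure D2:**
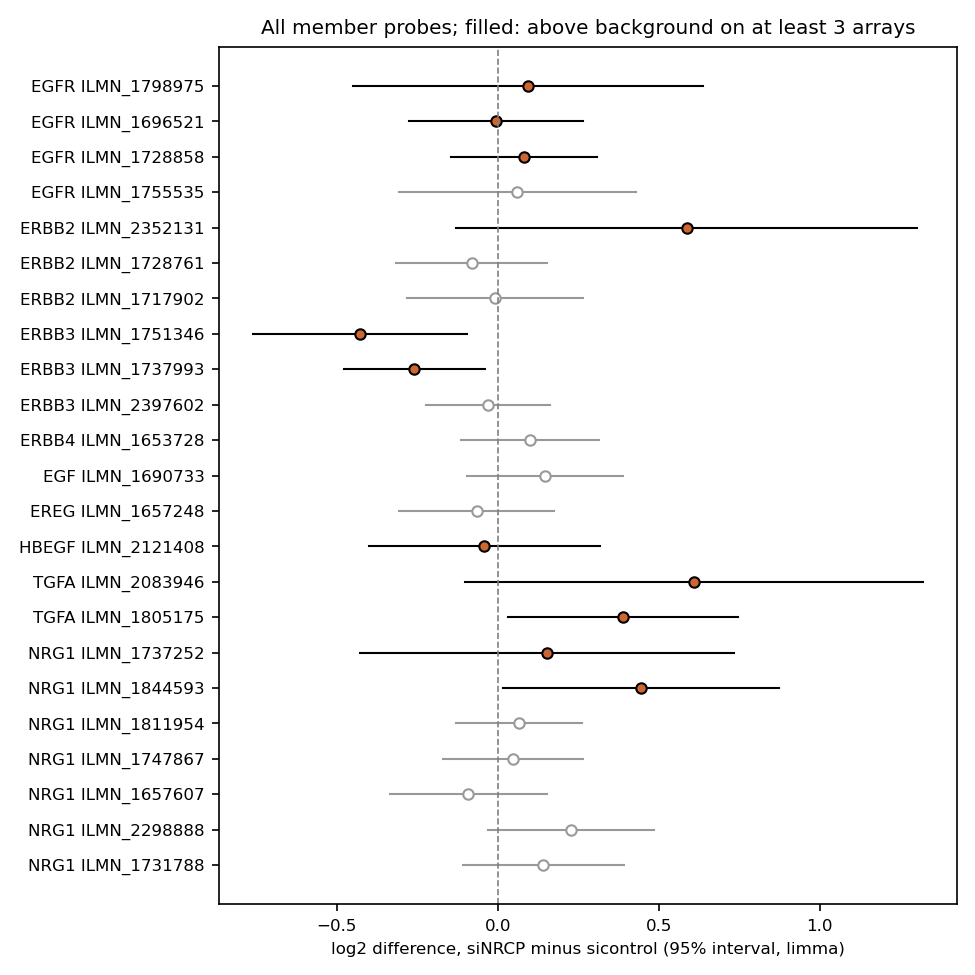
Log2 difference, siNRCP minus sicontrol (x axis), for all 23 member probes (y axis), with the limma 95% interval as the bar. Filled points lay above background on at least 3 arrays. The interval of ERBB3 ILMN_1751346 lies below 0 and those of 1 TGFA and 1 NRG1 probe above 0, all unadjusted. That of ERBB3 ILMN_1737993 also lies below 0, but this probe was at background on all siNRCP arrays. After adjustment 0 probes passed.

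TGFA, which encodes the EGFR ligand TGF-alpha, read highest on siNRCP arrays 2 and 3 on both its probes, while the order of the other arrays differed between the probes. On ILMN_2083946 the log2 intensity was 9.23, 8.89 and 8.98 in sicontrol and 8.92, 10.25 and 9.75 in siNRCP. On ILMN_1805175 it was 7.75, 7.77 and 7.69 in sicontrol and 7.77, 8.29 and 8.32 in siNRCP. On both probes siNRCP arrays 2 and 3 exceeded every sicontrol array, and siNRCP array 1 lay among the sicontrol arrays on the first and level with the highest of them on the second. The differences were 0.61 ± 0.30 log2 (SE, 3 arrays a group; limma adjusted p = 0.45) and 0.39 ± 0.15 (adjusted p = 0.32), and 0.36 and 0.19 under median scaling. The raw intensity of the dimmer probe was 277 to 298 in sicontrol and 276, 270 and 372 in siNRCP. Before normalization the dimmer probe was therefore above all sicontrol arrays on siNRCP array 3 only, whereas the brighter probe, at 545 to 754 in sicontrol and 554, 871 and 917 in siNRCP, was above them on both.

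NRG1, the gene of neuregulin-1, a ligand of ERBB3 and ERBB4, had 7 probes, of which 2 lay above background, on all 6 arrays. Those 2 disagreed in the order of the arrays. ILMN_1844593 read 7.43, 7.11 and 7.30 in sicontrol and 7.37, 8.08 and 7.73 in siNRCP, with siNRCP arrays 2 and 3 above all sicontrol arrays as for ERBB2 and TGFA. Its raw intensities were 244, 196 and 221 in sicontrol and 221, 241 and 263 in siNRCP. Before normalization only siNRCP array 3 was therefore above all sicontrol arrays. ILMN_1737252 read 8.27, 8.08 and 8.24 in sicontrol and 8.95, 7.89 and 8.21 in siNRCP, with siNRCP array 1 the highest of the 6 arrays and siNRCP array 2 the lowest. The differences were 0.45 ± 0.18 log2 (SE, 3 arrays a group; limma adjusted p = 0.34) and 0.15 ± 0.25 (adjusted p = 0.87), and under median scaling they were 0.26 and -0.04. A further probe annotated to the same transcript as ILMN_1737252 lay at background on all arrays, at 5.93 ± 0.16 and 6.15 ± 0.09 (SD, n = 3), as did the other 4 NRG1 probes, whose differences ran from -0.09 to 0.14. Neuregulin-1 is made in many forms from different promoters, and the probes are annotated to different transcripts of the gene.

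HBEGF, the gene of heparin-binding EGF, a ligand of EGFR and ERBB4, read 8.15, 7.72 and 7.81 log2 in sicontrol and 8.07, 7.64 and 7.84 in siNRCP on its 1 probe. The groups overlapped, with a difference of -0.04 ± 0.15 (SE, n = 3 per group; limma adjusted p = 0.95; 95% interval -0.40 to 0.32). Under median scaling it was -0.23 (adjusted p = 0.76). EGF, the founding ligand, lay at background on all 6 arrays at 5.96 ± 0.14 in sicontrol and 6.11 ± 0.08 in siNRCP (SD, n = 3), and EREG, the gene of epiregulin, at 6.33 ± 0.06 and 6.26 ± 0.15. Of the ligand genes outside the members, BTC, the gene of betacellulin, exceeded background on 1 array and read -0.11 ± 0.09 (adjusted p = 0.67), and NRG3, a neuregulin, exceeded it on 0 arrays and read 0.06 ± 0.09 (adjusted p = 0.86). The 4 measured genes of that list held 0 genes above background on at least 3 arrays and 0 that passed.

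Which members passed depended on siNRCP array 1. Without it ERBB2 rose by 0.99 ± 0.12 log2 (SE, 3 sicontrol against 2 siNRCP arrays; limma adjusted p = 1.7e-05). In the same fit TGFA rose by 0.96 ± 0.14 on ILMN_2083946 (adjusted p = 0.00011) and by 0.56 ± 0.11 on ILMN_1805175 (0.00082), and NRG1 rose by 0.63 ± 0.13 on ILMN_1844593 (0.0019). These were 4 of 23 member probes higher and 0 lower, beside 10.5% of all probes in each direction. All 4 were among the 11 members above background, where 24.1% of all probes above background were higher and 24.2% lower. Leaving out any of the other 5 arrays gave 0 member probes. Leaving out another siNRCP array lowered these differences to unlike extents. ERBB2 read 0.39 without siNRCP array 2 and 0.38 without siNRCP array 3. In the same order TGFA ILMN_2083946 read 0.31 and 0.56, and TGFA ILMN_1805175 0.31 and 0.29. NRG1 ILMN_1844593 read 0.28 and 0.44. With median scaling and without siNRCP array 1, a setting chosen after seeing the data, ERBB2 (0.51, adjusted p = 0.042) and TGFA ILMN_2083946 (0.65, 0.018) passed as higher. ERBB3 ILMN_1751346 passed as lower in that setting (-0.54, 0.039), while TGFA ILMN_1805175 (0.31, 0.25) and NRG1 ILMN_1844593 (0.39, 0.11) did not pass. Neither the lower brightness of siNRCP array 2 nor the place of siNRCP array 1 among the sicontrol arrays was tested as a cause.

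**Figure D3:**
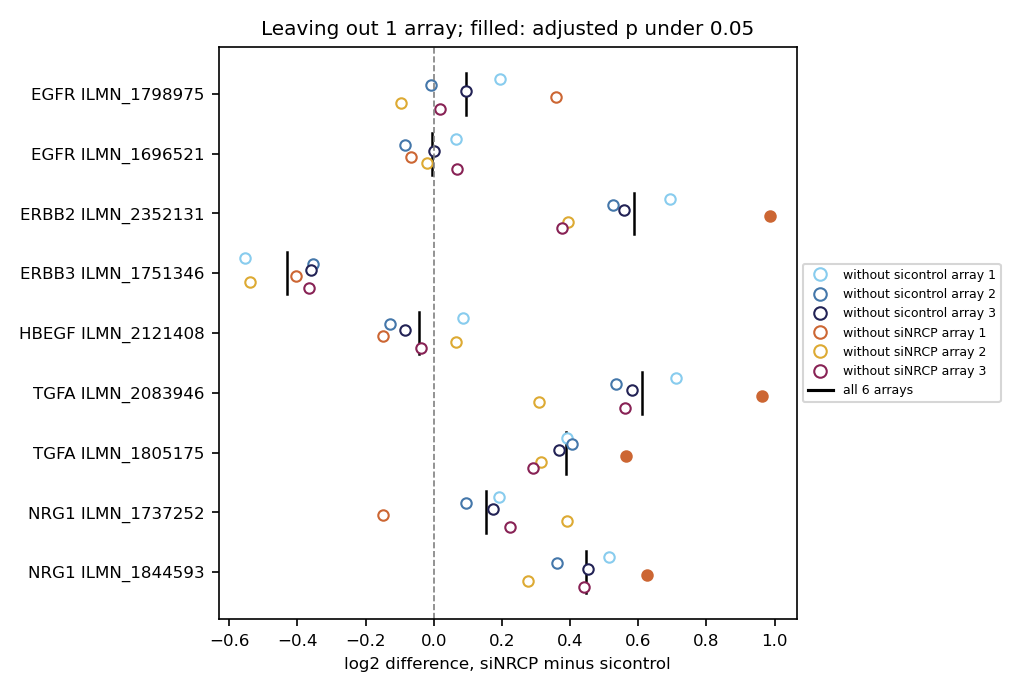
Log2 difference, siNRCP minus sicontrol (x axis), for the 9 member probes above background on all arrays (y axis), with 1 of the 6 arrays left out in turn (coloured circles) and with all 6 arrays (black line). Filled circles passed at an adjusted p under 0.05; they occur on ERBB2, both TGFA probes and 1 NRG1 probe, each time without siNRCP array 1.

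Genes that act on the ligands and receptors were read from lists chosen with earlier results of these data known, with the brightest probe standing for each gene. Over all 20046 named genes 1.27% passed as higher and 1.51% as lower, and the median difference was 0.01 log2. The members themselves had a median of 0.10 over 9 genes, which turned to -0.042 under median scaling (all named genes -0.03). Over the 6 members above background the median was 0.12, beside 0.02 over all named genes above background.

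In the list of proteases and cofactors that free the ligands, 1 of 14 genes passed as higher and 0 as lower, with a median difference of 0.17 log2 (0.042 under median scaling). ADAM15, a membrane metalloprotease, read 10.43, 10.49 and 10.27 log2 in sicontrol and 11.0, 11.36 and 11.48 in siNRCP on ILMN_1756920. All siNRCP arrays lay above all sicontrol arrays, array 1 included. The rise was 0.88 ± 0.14 log2 (SE, 3 arrays per group), with a limma adjusted p of 0.031, and passed in 1 of the 6 fits that left out an array, the one without siNRCP array 1 (1.01, adjusted p = 7.3e-06). Under median scaling it read 0.61 and did not pass (adjusted p = 0.17). Its second probe, ILMN_2384544, read 0.88 higher and just missed the threshold (adjusted p = 0.051), and its other 2, dimmer probes read 0.15 and 0.25. ADAM17 and ADAM10, the main sheddases of EGFR ligands, read 0.08 ± 0.26 and -0.27 ± 0.17 log2 (adjusted p = 0.94 and 0.56). The second ADAM10 probe, ILMN_2148360, read -0.41 ± 0.16 (limma adjusted p = 0.32). On both ADAM10 probes every siNRCP array lay below every sicontrol array. RHBDF2, the inactive rhomboid that carries ADAM17 to the cell surface, read 0.82 ± 0.23 (adjusted p = 0.16) on its brightest probe and did not overlap between groups. Under median scaling RHBDF2 read 0.57 (adjusted p = 0.30) on that probe. Its second probe, ILMN_2373062, read 0.75 (adjusted p = 0.094), and another probe above background, ILMN_1735792, read 0.04 (0.93) with overlapping groups. ADAM17, ADAM10 and RHBDF2 were named after their values were seen.

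In the lists read for receptor attenuation, signal relay and ERK response, no measured gene passed on its brightest probe. Over all named genes 11.0% were higher and 9.53% lower at an unadjusted p under 0.05, the background for the counts at that p that follow. In the list of receptor attenuation and turnover 0 of 21 genes passed limma (3 higher and 2 lower at an unadjusted p under 0.05), and the median was 0.22 log2 (0.080 under median scaling). The smallest p there belonged to RNF41, a ubiquitin ligase that lowers ERBB3, and ERRFI1, an inhibitor of EGFR that its signalling induces. RNF41 read 0.34 ± 0.09 log2 (SE, 3 arrays a group, limma adjusted p = 0.14), and 0.25 (0.44) under median scaling. Its raw intensities were 153, 164 and 159 in sicontrol and 188, 143 and 183 in siNRCP, with siNRCP array 2 the lowest. ERRFI1 read -0.39 ± 0.13 (0.22), and -0.67 (0.086) under median scaling. In the list of adaptors and the RAS-ERK chain 0 of 19 measured genes passed (7 higher and 0 lower at that unadjusted p). The median was 0.25 (0.084 under median scaling). PTPN11, the phosphatase SHP2, read 1.04 ± 0.24 (0.094) and the transcription factor STAT3 0.66 ± 0.21 (0.22). Both read higher on every siNRCP array than on any sicontrol array. Under median scaling PTPN11 read 0.75 (0.10) and STAT3 0.38 (0.36). In the list of ERK-response genes 0 of 18 passed (1 higher and 3 lower at that unadjusted p), and the median was -0.03 (-0.22 under median scaling). The ERK phosphatase DUSP6 read -0.59 ± 0.12 (0.065) and the early-response gene IER3 -0.82 ± 0.18 (0.081), and both were lower on every siNRCP array. Under median scaling DUSP6 read -0.78 (0.13) and IER3 -1.14 (0.19). Without siNRCP array 1 the genes that passed were 7 higher and 0 lower in the shedding list, 13 and 1 in the attenuation list, 10 and 2 among the adaptors and 4 and 4 among the ERK-response genes, beside 31.3% of all named genes passing in 1 direction or the other. All of these lay among the 11, 20, 17 and 16 genes of those lists above background, and of all 11558 named genes above background 29.0% were higher and 24.5% lower in that fit.

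**Figure D4:**
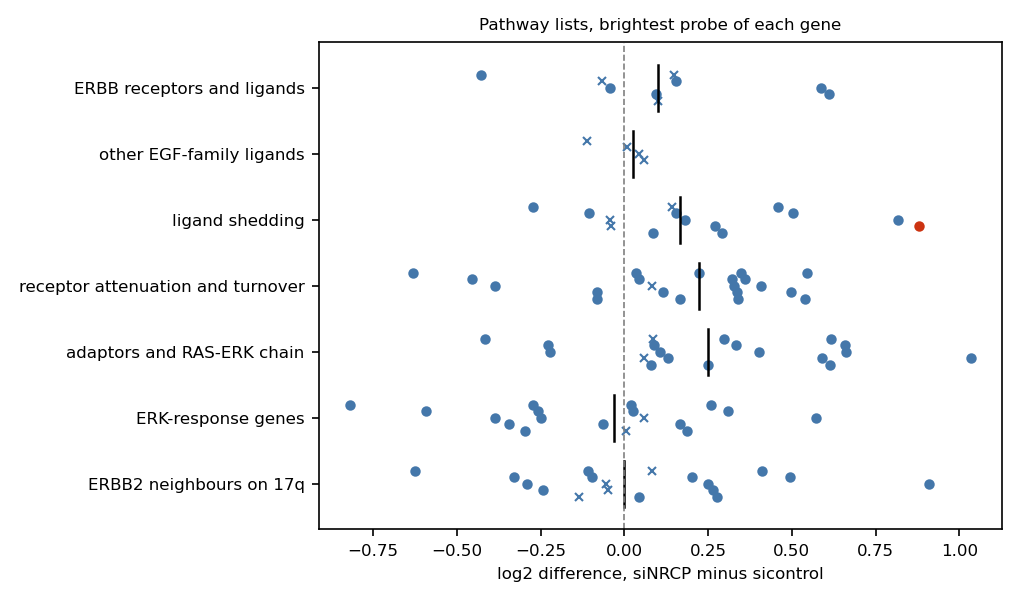
Log2 difference, siNRCP minus sicontrol (x axis), of each gene's brightest probe, by list (y axis). Circles lay above background on at least 3 arrays and crosses did not, the black line is the list's median, and the 1 red point is ADAM15, which passed at an adjusted p under 0.05.

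The genes beside ERBB2 on chromosome 17, several of which are often amplified with it, were set beside ERBB2 in their order along the chromosome. Of 18 genes 0 passed limma on the brightest probe (5 higher and 1 lower at an unadjusted p under 0.05), and 14 lay above background. The median difference was -0.0023 log2 over all 18 and 0.12 over the 14 above background. MED1, a Mediator subunit, passed on its dimmer probe ILMN_3248122, chosen here after its values were seen. That probe read 7.88, 7.86 and 7.86 in sicontrol and 8.31, 8.32 and 8.42 in siNRCP, higher on every siNRCP array after normalization. Its raw intensities were 321, 295 and 305 in sicontrol and 381, 273 and 397 in siNRCP, with siNRCP array 2 the lowest. The probe had a difference of 0.48 ± 0.08 log2 (SE, 3 arrays a group; limma adjusted p = 0.040). It passed in 1 of the 6 fits that left out an array, the one without siNRCP array 1, and read 0.28 (adjusted p = 0.50) under median scaling, while the brighter MED1 probe read 0.28 (0.28) and, under median scaling, 0.03. GRB7, an adaptor that binds ERBB2, read 9.64, 9.94 and 9.62 in sicontrol and 10.17, 10.18 and 10.32 in siNRCP on its brightest probe. After normalization every siNRCP array of GRB7 lay above every sicontrol array, array 1 included, unlike ERBB2. The raw intensities were 984, 1100 and 922 in sicontrol and 1301, 834 and 1323 in siNRCP. Before normalization siNRCP array 2 was therefore the lowest of the 6 arrays. The difference of 0.49 ± 0.12 log2 (SE, n = 3 per group) did not pass (limma adjusted p = 0.099). Under median scaling it was 0.25 (adjusted p = 0.65). A dimmer GRB7 probe, ILMN_1740762, read 0.73 ± 0.15 log2 (SE, limma adjusted p = 0.067), and 0.52 (0.22) under median scaling. Its raw intensities were 365, 398 and 313 in sicontrol and 466, 406 and 544 in siNRCP. On that probe every siNRCP array lay above every sicontrol array before and after normalization. The third GRB7 probe lay at background on all 6 arrays. STARD3, a cholesterol-binding protein of late endosomes, read 10.83, 10.94 and 10.80 in sicontrol and 10.50, 10.74 and 11.04 in siNRCP, with a difference of -0.10 ± 0.14 (adjusted p = 0.85), and of -0.35 (adjusted p = 0.51) under median scaling. PNMT, the enzyme that makes adrenaline, was above background on all 3 sicontrol and 0 siNRCP arrays, so its siNRCP level is only a bound, and the fit gave an adjusted p of 0.11. Among the neighbours above background on all 6 arrays the differences ran from -0.33 for PGAP3 to 0.91 log2 for CDK12, both named after their values were seen, and neither passed (limma adjusted p = 0.47 and 0.18). Whether the difference of ERBB2 departs from that of its neighbours was not tested.

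**Figure D5:**
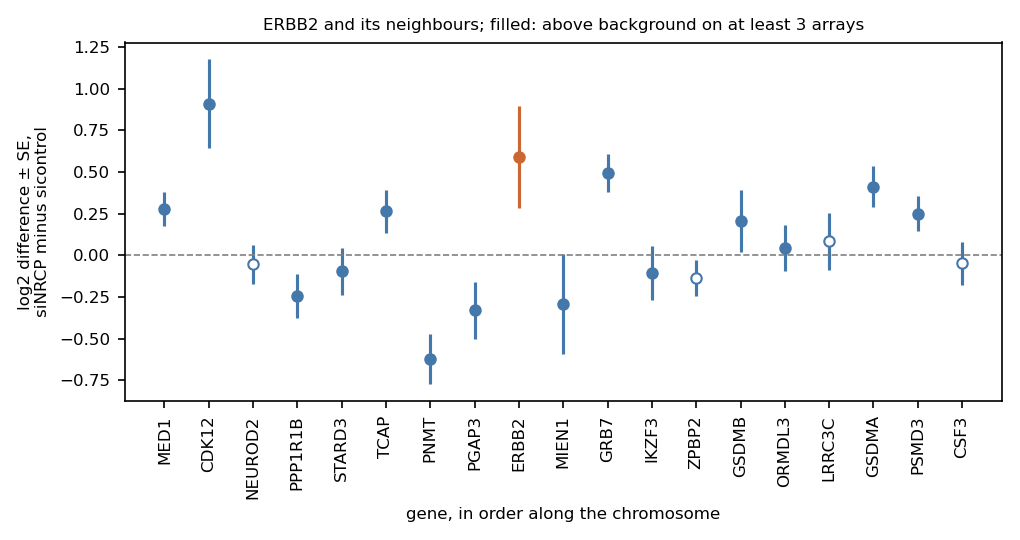
Log2 difference ± SE, siNRCP minus sicontrol (y axis), of the brightest probe of ERBB2 (orange) and of 18 genes beside it in their order along chromosome 17 (x axis). Open points did not reach background on at least 3 arrays; ERBB2 reads 0.59, GRB7 0.49 and STARD3 -0.10, and PNMT was below background on the siNRCP arrays.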

How the data were processed

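Biotin-labelled cRNA was made from 500 ng of total RNA, per the labels' protocols. The deposited bead intensity of each probe came from BeadStudio (per the submitters' processing notes), and neither its version nor a background subtraction is stated there. The series matrix, also deposited, holds log2 values that the authors quantile normalized; they differed by at most 0.065 from a quantile normalization of the deposited intensities. No detection p-values are in the intensity table. All 47231 probes were corrected with normexp (offset 50), quantile normalized and tested in limma 3.58.1 (R 4.3.3; lmFit, eBayes, no covariate), with Benjamini-Hochberg adjustment over all probes. Probes were named from the platform annotation by Entrez identifier: 30113 carry 1 symbol, 8 several and 17110 none, and 30074 matched RefSeq. The background level used 437 olfactory receptor probes. The number of arrays limits the precision, and since separate cultures are not stated, p-values cover only a spread among arrays that may be technical.

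The members and lists were chosen with earlier results of these data known. All member probes were named. Of each list, up to 2 genes that passed per direction, or the 2 of smallest p where none passed, were named, with BTC, STARD3 and GRB7 whatever their values. The steps were tested on simulated data. Of the adaptor list 6 genes, and EPGN, are not analysed here. Alternatives were other background corrections and scalings, the deposited log2 values, other variance models, array weights, a replicate block, a filter on dim probes, a 1.5-fold minimum, the mean of a gene's probes, and leaving out each array.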

Additional observations from a re-analysis of the deposited data

How the results depend on the processing

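Of the 23 member probes 0 passed with all 6 arrays under every background correction and scaling run, under eBayes with trend and robust options (469 of all probes passed), under the replicate block and under the filter on dim probes. Array weights gave 5 member probes, ERBB2 (0.91), both TGFA probes (0.78 and 0.54) and NRG1 ILMN_1844593 (0.50) as higher and ERBB3 ILMN_1751346 as lower (-0.50), of 8167 over all probes. Over all probes median scaling gave 254. The replicate block gave 0 of all probes; same-numbered arrays deviated against each other (r = -0.64, -0.43 and -0.20 over 20027 probes above background), so the numbers were not taken to pair the samples, and nothing was read from the lost calls. Leaving out 1 array gave 5 to 9933 of all probes, 0 to 4 member probes, and 0 to 7 genes of the shedding list, 0 to 14 of the attenuation list, 0 to 12 of the adaptor list, 0 to 8 of the ERK-response list and 0 to 8 of the ERBB2 neighbours. With median scaling and without siNRCP array 1, 3 member probes passed. The 1 shedding gene was lost (0) under median scaling, trend and robust options and the block. Array weights gave 5 shedding, 8 attenuation, 12 adaptor, 5 ERK-response and 6 neighbouring genes, and cyclic loess 1 ERK-response gene. Signs turned on members near 0. Under median scaling EGFR ILMN_1798975 read -0.13 and NRG1 ILMN_1737252 -0.042. Under array weights EGFR ILMN_1755535 read -0.035, EREG 0.013, NRG1 ILMN_1737252 -0.005 and NRG1 ILMN_1747867 -0.0035, and ERBB2 ILMN_1717902 read 0 in the deposited log2 values. Over the fits that left out an array the ranges were -0.098 to 0.36 for EGFR ILMN_1798975, -0.083 to 0.067 for EGFR ILMN_1696521, -0.095 to 0.17 for EGFR ILMN_1755535, -0.13 to 0.066 for ERBB2 ILMN_1717902, -0.15 to 0.087 for HBEGF ILMN_2121408 and -0.15 to 0.39 for NRG1 ILMN_1737252. With median scaling and without siNRCP array 1, EGFR ILMN_1755535 read -0.065, ERBB2 ILMN_1717902 0.042 and NRG1 ILMN_1737252 -0.40. In most of these alternatives fewer arrays or other weights enter; the cause of the other changes was not tested.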
